A study of Tribolium castaneum with 16 samples.

Results

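The regions described here were open, by the criterion of a called peak, in whole embryos of the red flour beetle Tribolium castaneum aged 0 to 24 h and in no other sample profiled. Peaks of 14 deposited lists were merged where they overlapped by 1 bp or more, and 45389 merged regions lay on the 10 linkage groups. Of these, 1480 (3.26%) held a peak in both lists of 0 to 24 h embryos and in none of the 12 other lists. They are called early-only regions below, which states where a peak was called and does not state that chromatin was closed elsewhere. They covered 298 kb. On unplaced scaffolds 301 of 6995 merged regions (4.3%) met the same rule and are kept apart. The regions were chosen by their peak calls in these 14 lists, so calls, folds and widths are given as a description, without a test.

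The assay was FAIRE-seq. It crosslinks chromatin, breaks it by sonication and sequences the DNA that phenol-chloroform leaves in the aqueous phase, which is rich in nucleosome-poor stretches. The 6 groups were whole embryos of the Georgia I strain, laid 0 to 24 h, 24 to 48 h or 48 to 72 h earlier (2 samples per stage), and brain (2 samples, titled CNS) and lateral epidermis with the wing disc of segment T2 (elytron) or T3 (hindwing) (3 samples each), from last-instar larvae of the pu11 enhancer-trap strain. Larvae for epidermis were picked by the activity of the enhancer trap. Embryos were collected over 24 h and aged at 30 °C, so each stage mixed ages across a whole day. Fixation lasted 20 minutes for brain and 30 minutes for the other groups, and recorded barcodes were 5 nt long in embryos, 6 nt in brain and 8 nt in epidermis. Strain, barcode length and life stage therefore cannot be told apart between embryo and larva. The 2 genomic inputs were not analysed here.

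The first day of beetle development spans the syncytial divisions, the formation of the blastoderm, the handover from maternal to zygotic transcripts and the start of gastrulation and segmentation. In this short-germ insect the anterior segments are laid down in the blastoderm and the rest are added from a posterior growth zone. Open chromatin in such embryos is found at promoters and at enhancers, the stretches of DNA where transcription factors bind and displace nucleosomes, and an enhancer can open at one stage and close at the next. In a whole embryo, strong opening in a few cells and weak opening in many cannot be told apart. The gene table at hand was built on another assembly than the peak lists, so no region is assigned to a gene and no sequence is shown.

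Depth bears on every region below. The background depth recovered from the lists is the lowest local background, in reads, at any peak summit of a list. It was 3.71 and 4.72 in 0 to 24 h replicates 1 and 2, and between 1.89 and 2.53 in the 4 later embryo lists. It was 9.85 and 5.91 in CNS replicates 1 and 2, and between 1.96 and 5.77 in the 6 epidermis lists. Both CNS lists and T3 replicate 3 were thus deeper than both 0 to 24 h lists, and all 4 later embryo lists were shallower.

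Early-only regions were narrow and weak beside other regions of the same embryos. Their fold enrichment, the authors' ratio of reads at the summit over local background, had a median of 4.46 in replicate 1 (lowest 2.13, highest 18.5) and 4.38 in replicate 2 (lowest 2.14, highest 19.6). All 24519 regions called in both 0 to 24 h lists, of which the early-only regions were 6.04%, had medians of 6.18 and 6.42. The median read pileup at the summit was 23 and 28 in replicates 1 and 2, against 36 and 46 for all 24519 regions. The median width of a merged early-only region was 181 bp, with a range from 127 to 605 bp. It was 365 bp for all regions called in both lists, but a merged region spans the peaks of every list. The rule thus in part fixes this difference. The 0 to 24 h peaks alone had median widths of 157 and 168 bp in replicates 1 and 2. For all regions called in both lists these widths were 233 and 256 bp. A single peak made up the region in 1469 cases in replicate 1 and in 1477 cases in replicate 2. The local background was within 1% of its lowest value in both lists for 559 early-only regions (37.8%), against 24.3% of all regions called in both lists.

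**Figure D1:**
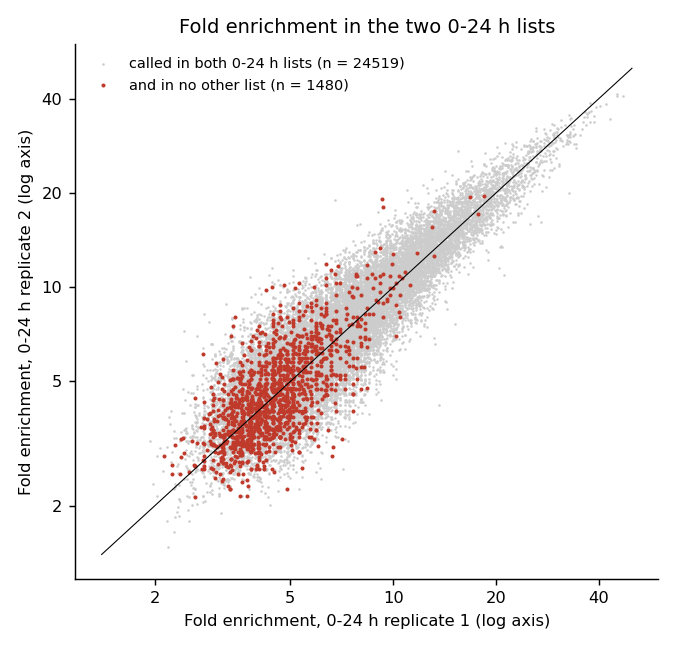
Fold enrichment in 0 to 24 h replicate 1 (x axis, log) and replicate 2 (y axis, log), with 1 point per region called in both lists and the line of equal fold. Early-only regions (red, n = 1480) lie mostly at the low end, with medians of 4.46 and 4.38, and a few reach folds above 10 in both replicates.

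The rule asks for a peak of both replicates in 1 region, and narrow regions leave little room between summits, so close summits are in part fixed by the choice. The summits of the 2 lists lay a median of 13 bp apart, and 1346 of the 1480 pairs (90.9%) lay within 50 bp, against 84.5% for all regions called in both lists. The fold differed by less than 1.5 times between replicates in 1338 regions (90.4%) and by more than 2-fold in 13. Over all regions called in both lists, 92.1% differed by less than 1.5 times. Across regions, Pearson's r between the log2 folds of the 2 replicates was 0.71 for early-only regions and 0.89 for all regions called in both lists, which span a wider range of folds. It was higher in replicate 2 in 756 regions (51.1%), and the median log2 ratio of replicate 2 to replicate 1 was 0.01, with an SD of 0.35 over regions.

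The share of early-only regions fell as fold rose. They made up 147 of 897 regions (16.4%) where the smaller of the 2 folds was below 3, 462 of 4906 (9.42%) between 4 and 5, 176 of 3680 (4.78%) between 5 and 6, and 13 of 4140 (0.314%) from 10 upwards. The regions called in both 0 to 24 h and both CNS lists only fell in the same way, from 15.4% below 3 to 6.20% between 5 and 6 and to 0.362% from 10 upwards, with a median smaller fold of 4.20. The smaller fold reached 5 in 318 early-only regions and 8 in 46. The median smaller fold was 4.02 with no other list, 4.17 with 1 other list, 5.77 with 5 and 10.1 with all 12. It did not rise at each step, being 6.47 with 6 other lists and 5.67 with 8.

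**Figure D2:**
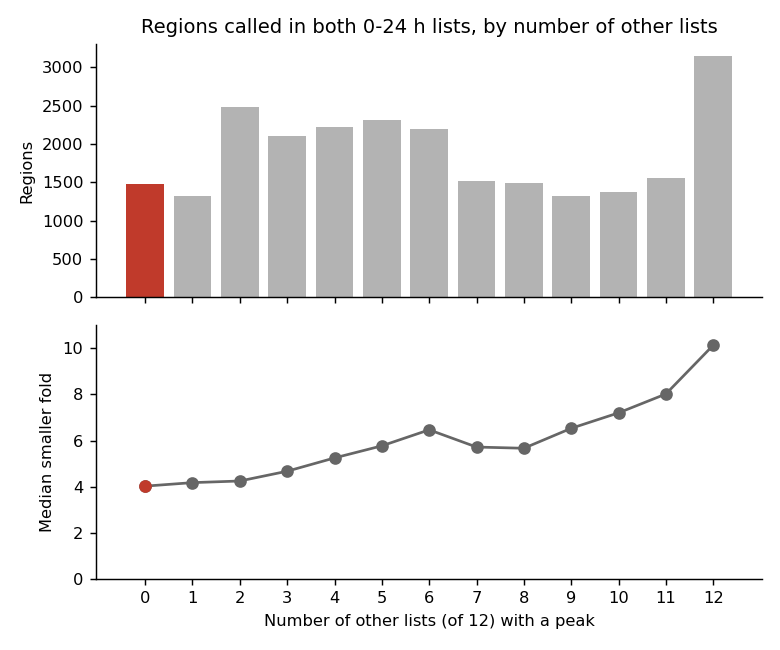
Regions called in both 0 to 24 h lists, by how many of the 12 other lists also held a peak there (x axis). The upper panel counts regions (1480 with no other list, in red) and the lower panel gives the median of the smaller 0 to 24 h fold enrichment, which is lowest at 4.02 for the early-only regions and highest at 10.1 for regions called in all lists.

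The strongest early-only region spanned 297 bp on linkage group 5, at ChLG5:16391960-16392256. Its fold was 18.5 in replicate 1 and 19.6 in replicate 2, from pileups of 86 and 111 reads over backgrounds of 3.71 and 4.72, and its summits lay 2 bp apart. The nearest merged regions lay 2.35 kb to one side, called in 6 lists, and 0.749 kb to the other, called in 1 list, and neither was called in both 0 to 24 h lists. The second, at ChLG5:17823741-17824186, was 446 bp wide, with folds of 17.7 and 17.1 and pileups of 89 and 105. Both neighbours of this region, 3.03 kb and 2.43 kb away, were themselves called in both 0 to 24 h lists and in 7 and 10 lists in all. In both replicates the first region lay over the lowest background of the list and the second close to it.

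Next in strength, ChLG6:2471518-2471858 had folds of 16.8 and 19.4 and lay only 89 bp from a region called in 4 lists. The region at ChLG2:10449931-10450189 had folds of 13.2 and 17.5, and that at ChLG7:8021726-8021944 had 12.9 and 15.6. The latter was the most isolated of the 10 strongest, with its nearest neighbours 7.52 kb and 13.2 kb away. The other 5 of the 10 strongest lay at ChLG4:3355764-3355977, ChLG10:10362369-10362761, ChLG2:16898515-16898771, ChLG7:9311533-9311818 and ChLG4:11644018-11644434, with a smaller fold between 10.4 and 12.6. All 10 had a single peak in each replicate, with summits 2 to 31 bp apart.

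At the other end, the weakest early-only region was ChLG8:4143313-4143478, with folds of 2.13 and 2.89, and the next weakest was ChLG8:16866399-16866652, with folds of 2.62 and 2.14. Both lay over a raised local background, 9.81 reads for the former and 4.73 for the latter in replicate 1, against that list's lowest 3.71. The widest region, 605 bp at ChLG6:8855449-8856053, had folds of 5.09 and 4.55, and its summits lay 254 bp apart, so the replicates peaked in different places there. The next widest were ChLG8:5449557-5450109 (553 bp, folds of 5.73 and 3.67) and ChLG6:12706823-12707370 (548 bp, folds of 3.99 and 3.74). The 3 widest regions were thus not among the 10 strongest. The 10 strongest were 214 to 446 bp wide, all above the early-only median of 181 bp.

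Just outside the definition were 1329 regions with a peak in both 0 to 24 h lists and in 1 other list, with a median smaller fold of 4.17 and a median width of 205 bp. That list was a CNS list in 831 cases, 584 of them CNS replicate 2, a later embryo list in 356 and an epidermis list in 142. The 48 to 72 h replicate 2 and T2 replicate 1, the lists with the fewest peaks among embryos and epidermis, were that list in 0 cases each. Of all regions called in both 0 to 24 h lists, 82.1% and 86.0% were called in CNS replicates 1 and 2. The share was 30.5% to 64.6% in the later embryo lists and 22.9% to 49.0% in the epidermis lists. On the other side, 1705 regions were called in a single 0 to 24 h list and nowhere else, 525 in replicate 1 and 1180 in the deeper replicate 2, with a median fold of 3.84 and a median width of 141 bp.

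Whether an early-only region could have been called in the other lists was examined from the recovered depths. The summit, at the smaller of its 2 folds, was set against the lowest −log10 p of each list at that list's background depth. It would have passed for 1416 regions (95.7%) in all 4 later embryo lists and for all 1480 in both CNS lists. In all 6 epidermis lists it would have passed for 1388 (93.8%). The same 1388 passed in all 12 lists. The 92 others had smaller folds between 2.13 and 2.87. Of all 24519 regions called in both 0 to 24 h lists, 98.3% would have passed in the later embryo lists and 99.9% in CNS. That share was 97.5% in epidermis and also in all 12 lists. The early-only shares lay close to these, so passing was not particular to early-only regions.

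Passing at the summit overstated what was called, as pairs of replicates showed. Among regions with a fold between 3.42 and 4.83, the middle of the early-only range from the 25th to the 75th percentile, every region would have passed in its replicate list. That outcome was fixed by the fold range, since a fold of 3.04 is enough to pass in any list at its background depth. Of 7504 such regions of 0 to 24 h replicate 2, 69.8% were called in replicate 1, and of 6435 of replicate 1, 85.9% were called in replicate 2. The value was 87.6% from CNS replicate 2 to replicate 1 and 87.2% in return, and from 69.4% to 88.1% among the T3 lists. The later embryo and T2 pairs differed by direction. In 24 to 48 h embryos the value was 79.5% from replicate 1 to replicate 2 and 51.1% in return, and in 48 to 72 h embryos it was 88.6% from replicate 2 to replicate 1 and 32.1% in return. It was 26.2% and 26.1% from T2 replicates 2 and 3 to T2 replicate 1, but 95.6% and 94.0% from T2 replicate 1 to replicates 2 and 3, and 81.2% and 80.2% between those replicates. Low values were thus those of 3 lists, 24 to 48 h replicate 1, 48 to 72 h replicate 2 and T2 replicate 1. The recovered depth was 1.89 in 24 to 48 h replicate 1 and 1.96 in T2 replicate 1, each the lowest of its group. In 48 to 72 h replicate 2 it was 2.53, the highest of the later embryo lists. The part of depth in these values was not tested.

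Regions of both 0 to 24 h lists at these folds, 6638 in number and early-only or not, were set beside these values. The share called was 71.4% and 77.7% in CNS replicates 1 and 2, between 26.7% and 33.2% in the T3 lists, 25.3% and 26.2% in T2 replicates 2 and 3 and 11.2% in T2 replicate 1. The share was 25.2% and 39.8% in 24 to 48 h replicates 1 and 2, and 28.8% and 11.4% in 48 to 72 h replicates 1 and 2. Over all folds, 27.6% of regions called in both 0 to 24 h lists had no peak in a later embryo list, 11.2% had none in CNS and 43.9% had none in epidermis. In each of the 12 lists the share was below that for regions of a replicate of the same group. That difference was not tested, and the sets of regions differ. The part of depth in the other missing calls was not tested region by region.

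**Figure D3:**
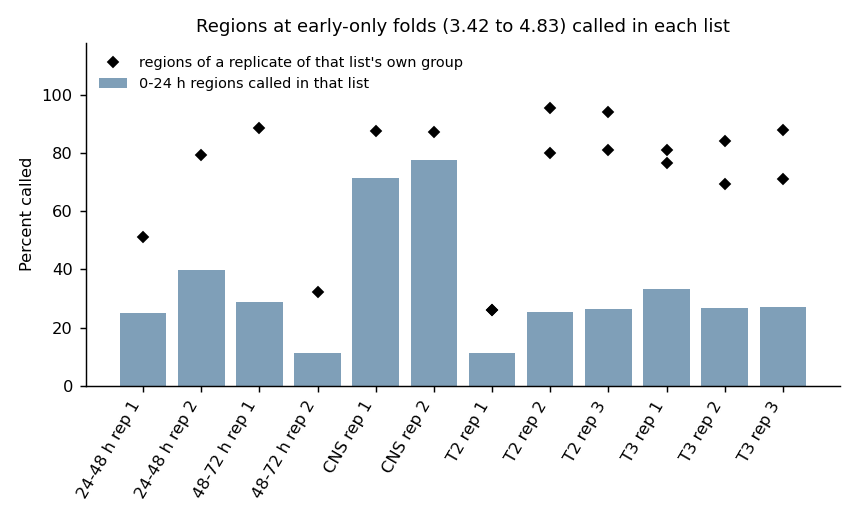
Share of regions with a fold between 3.42 and 4.83 that were called in each of the 12 other lists (x axis), in percent (y axis). Bars are the 6638 regions of both 0 to 24 h lists and diamonds are regions of a replicate of that list's own group. Bars reach 71.4% and 77.7% in CNS and 39.8% or less elsewhere, and diamonds are lowest in T2 replicate 1 (26.2% and 26.1%) and 48 to 72 h replicate 2 (32.1%).

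Early-only regions occurred on every linkage group, from 75 on linkage group 10 to 186 on linkage group 7. Per 100 regions called in both 0 to 24 h lists they numbered 8.02 on linkage group 6 (95% Wilson interval 6.77 to 9.47, counting error only), 7.56 on linkage group 10 (6.07 to 9.37) and 7.45 on linkage group 1, the X chromosome (6.27 to 8.83). They numbered 4.74 on linkage group 3 (4.05 to 5.54) and 5.01 on linkage group 4 (4.24 to 5.91), and 6.04 over all. The intervals of linkage groups 3 and 6 did not overlap, but regions on 1 chromosome are not independent and no test was made. Linkage group 6 held 8.45% of the early-only regions, against 6.31% of all merged regions. It held 5.82% of the 1683 regions called in both 0 to 24 h and both CNS lists only. For early-only regions, the 1683 and all regions called in both 0 to 24 h lists, the X chromosome held 8.18%, 7.49% and 6.62%. In the same order, linkage group 3 held 10%, 10.4% and 12.7%, and linkage group 10 held 5.07%, 4.22% and 4.05%. Linkage group 4 held 8.92%, 11.9% and 10.7%, and linkage group 6 held 6.36% of the last. The 1683 thus leaned the same way as early-only regions on linkage groups 1, 3 and 10. They leaned the other way on 4 and 6. Linkage group 6 stayed above the value over all groups, and linkage group 3 below it, in all 23 other settings of the processing, with the lists left out in turn included. The X chromosome was above it in 22 of 23 and below it at equal list sizes (6.31 against 6.80). Leaving out a list only relaxes the rule, so all 1480 regions were bound to stay. The best 50% of each list kept 120 of them and equal list sizes kept 35. All settings draw on the same lists and are not independent support for a difference.

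**Figure D4:**
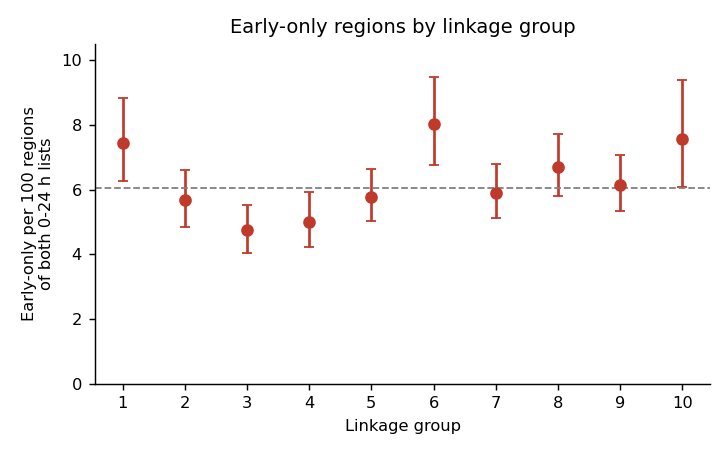
Early-only regions per 100 regions called in both 0 to 24 h lists (y axis) on each linkage group (x axis), with 95% Wilson intervals for counting error. The dashed line is the value over all linkage groups, 6.04. The intervals of linkage groups 1, 6 and 10 lie above it and those of 3 and 4 below it.

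Most early-only regions stood beside other open chromatin. The nearest merged region lay a median of 378 bp away and within 1 kb for 1081 of them (73.0%), against 60.8% of all regions called in both 0 to 24 h lists and 48.4% of regions called in all 14 lists. Regions called in both 0 to 24 h and both CNS lists only were similar at 70.9%, and those called in both CNS lists only were at 59.7%. Of the 1081 close neighbours, 738 (68.3%) were called in both 0 to 24 h lists, and 553 (51.2% of the 1081) were called there at a higher smaller fold than the early-only region itself. Of the 1081, 106 (9.81%) were early-only themselves, against 3.26% of all merged regions, and 45 (4.16%) were called in all 14 lists. Over all 45389 merged regions, 24519 were called in both 0 to 24 h lists and 3148 in all 14. The neighbouring region was called in a median of 4 lists. The other extreme was 58 early-only regions (3.92%) farther than 5 kb from the nearest region.

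Another early-only region lay within 10 kb of 590 of the 1480 (39.9%), and 890 were alone by that measure. The share was 23.1% among the 490 regions found at equal list sizes. The rest formed runs, in which each region lies within 10 kb of the next: 190 of 2 regions, 36 of 3 and 22 of 4 or more. The same share was 37.8% for the 0 to 24 h and CNS regions and 46.8% for the CNS regions, which were more numerous. The runs described next were picked out after their values had been seen.

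The longest run held 11 early-only regions in 39.7 kb of linkage group 4, at ChLG4:3694189-3733905, among 43 regions called in both 0 to 24 h lists. The 11 were 164 to 220 bp wide, with a smaller fold between 3.60 and 7.92. The last of them, ChLG4:3733715-3733905, was the strongest, with folds of 8.03 and 7.92. Peaks in this run came back at an even distance of 5368 bp, a lag found by a search from 1 to 10 kb in the same run, so its counts describe the run and test nothing. Of 38 regions of both 0 to 24 h lists with room for that distance inside the run, 32 (84.2%) had another such region there within 100 bp. For 10 of the 11 early-only regions a region of both 0 to 24 h lists lay 1 lag away on at least 1 side. These counterparts numbered 13, and 9 of them were also called in some other list, in up to 7 lists. Which position in the series counted as early-only thus varied from one stretch to the next. Whether the stretches are copies of one sequence, and how reads were shared between them, was not tested.

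**Figure D5:**
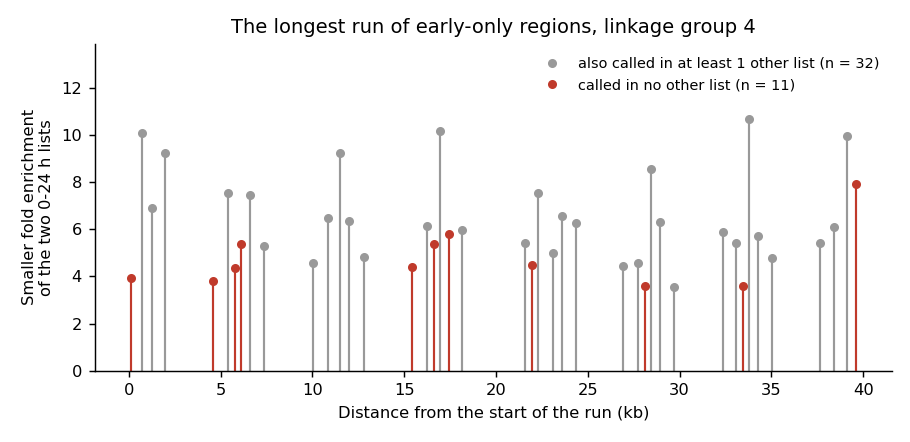
Regions called in both 0 to 24 h lists along the longest run of early-only regions, on linkage group 4, by distance from the start of the run (x axis, kb) and by the smaller of the 2 fold enrichments (y axis). Red marks the 11 early-only regions and grey the 32 regions also called in another list, and groups of peaks recur about every 5368 bp.

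The runs of 4 or more with the shortest spans were evenly spaced too. On linkage group 1, early-only regions 160 to 177 bp wide lay at ChLG1:6930899-6931064, ChLG1:6931420-6931596, ChLG1:6931967-6932126 and ChLG1:6933026-6933185, with a smaller fold between 4.24 and 5.94. With the 3 regions of both 0 to 24 h lists beside and between them, which were called in 6 to 9 lists and had folds of up to 13.3, the 7 centres were 499 to 567 bp apart. On linkage group 8, the 4 early-only regions between ChLG8:10599173-10599356 and ChLG8:10601886-10602073 were 180 to 188 bp wide, with folds from 5.52 to 8.22. The other region between them was called in 3 lists with folds of 6.58 and 9.21. The centres of the last 4 of these 5 regions were 761, 768 and 772 bp apart, and the first lay 413 bp before the next. On linkage group 1 every early-only region had a lower fold than the 3 others in both replicates, and on linkage group 8 the 4 were below the other region in replicate 2 and on either side of it in replicate 1. Whether the regions of either run are copies of one sequence was not tested.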

How the data were processed

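FAIRE-seq peak lists of 14 samples were used, each called on a single sample. The submitters' processing notes name Trimmomatic 0.32, Bowtie2 2.2.3, SAMtools 0.1.12a, deepTools 2.5.2 and MACS2 2.1.1.20160309. The genome build and control library are not given in the sources used here. The deposited fold enrichment is the authors' ratio over local background. The deposited −log10 p and −log10 q values are the authors', and the smallest −log10 q lay between 1.30 and 1.36. The deposited score is the whole part of 10 times −log10 q and was not used. The deposited summit offset gave summit positions. Coordinates count from 1.

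Pileup and background were recovered from fold = (pileup + 1) / (background + 1) and the Poisson tail, for all 323093 peaks within 0.001 of the −log10 p. The lowest background of a list was taken as its depth. Recovery and merging were tested on simulated data. The total number of reads is unknown, and fewer than 4 samples a group limit what replicates show. No peak was narrower than 125 bp, so a summit past the threshold is not enough for a call. Where a region held several peaks of a list, the one of largest fold was used. Named regions are the 10 with the largest smaller fold, the 3 widest and the 2 weakest. Regions and rules were chosen with earlier results of these data known. Planned gene lists, gene positions and motifs were not used here, for want of a genome of the files' build. Python 3.11.15, pandas 2.3.3, numpy 2.4.6 and scipy 1.17.1 were used.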

Additional observations from a re-analysis of the deposited data

Results flagged for a closer look

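Unplaced scaffolds were outside the comparisons above and also held regions with a peak in both 0 to 24 h lists and in no other list. There were 301 of them among 6995 merged scaffold regions (4.30%), on 160 scaffolds with at most 14 on a single one. They were 10.2% of the 2954 scaffold regions called in both 0 to 24 h lists, against 6.04% on linkage groups. Their median smaller fold was 4.21, and their median width was 189 bp.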

How the results depend on the processing

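Of 9 other settings that kept all lists, 8 left the number of early-only regions within 1.5 times of 1480, from 1251 with peaks merged up to 100 bp apart to 1871 where a list had to cover 50% of a region. At equal list sizes of 9725 peaks the number was 490. Leaving out a list gave from 1480 to 2711, the highest without 0 to 24 h replicate 1, where the rule rests on a single list. A count does not say which regions: in the best 50% of each list there were 1320 regions, which included 120 of the 1480, and at equal list sizes 35 of the 1480 remained. After scaling to the lowest depth 1431 remained. All 10 strongest regions remained in each setting except merging up to 100 bp apart (8 of 10) and 50% coverage (9 of 10).

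The share of regions whose summit would pass in all 12 other lists was 100% in the best 50% of each list and at equal list sizes, and 94.9% after scaling to one depth. With pileup and local background scaled together, an alternative added after the data were seen, it was 90.0%. Leaving out a list gave from 92.7% to 97.5%. The depths and lowest −log10 p of the full lists were used throughout, also where lists were cut or scaled. Regions found in the cut lists had higher folds, so their 100% is no check on the share. The median smaller fold and width moved to 7.22 and 260 bp in the best 50% and to 9.62 and 267 bp at equal list sizes. The cause was not tested. No paired analysis was possible because the regions were chosen by their calls and no result comes from a test. Windows for motifs and for gene starts were not run. The share of early-only regions with another within 10 kb was between 23.1% at equal list sizes and 49.5% with 50% coverage, and between 39.9% and 53.8% with a list left out. A missing call in 24 to 48 h replicate 1, 48 to 72 h replicate 2 or T2 replicate 1 says least, since 51.1% or fewer of the regions of a replicate were called there. The part of depth in this was not tested.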
